A study of Mus musculus with 6 samples.

Results

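miR-21, miR-148a and miR-214 are 3 microRNAs (miRNAs) that promote the formation or activity of osteoclasts, the cells that resorb bone. They were chosen by name from a mouse panel of 380 named miRNAs, and each name matched 1 entry. Quantitative PCR with SYBR Green gave their levels in the RNA of serum exosomes, which are small vesicles shed by cells. All 6 samples were taken 2 weeks after ACLT, which is read here as anterior cruciate ligament transection, an operation that destabilises the knee and serves as a model of osteoarthritis. The group labelled Vehicle (3 samples) received vehicle and the group labelled OCExoInhib (3 samples) received OCExoInhib, which the labels do not spell out. From what is known of the study, it is aimed at osteoclasts and blocks their release of exosomes. The sources used here do not give strain, sex, age or dose, and no uninjured group was analysed here. The design text speaks of pooling RNA from 3 mice per treatment without saying how the samples relate to the pools, so p-values reflect no more than how these samples scatter, and that scatter may be technical.

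A miRNA is cut from a hairpin precursor and guides the silencing complex to messenger RNAs that pair with its seed, bases 2 to 8. As background, miR-21 is induced during osteoclast differentiation and represses Pdcd4, a brake on the transcription factor c-Fos. miR-148a is known to promote osteoclast differentiation from precursor cells. miR-214 is known to promote it as well, and as a cargo of osteoclast exosomes that restrains bone-forming osteoblasts. All of them are made in many tissues, and a serum level does not show which cell released them.

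The mature sequences on the panel are shown 5′ to 3′ with the seed in capitals, because the seeds set which other panel entries are relatives.
miR-21: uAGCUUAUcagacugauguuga
miR-148a: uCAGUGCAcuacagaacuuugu
miR-214: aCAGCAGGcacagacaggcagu
No seed was common to any pair of the 3. Each sequence equalled a RefSeq mature miRNA (build GRCm38.p6), which named the arms miR-21a-5p, miR-148a-3p and miR-214-3p. miR-21 lies at chr11:86584120-86584141 on the minus strand, within the span of the protein-coding gene Vmp1. miR-148a lies at chr6:51269829-51269850 on the minus strand, within the span of the predicted gene Gm38821. miR-214 lies at chr1:162223438-162223459 on the plus strand, within the spans of Dnm3 and of the long non-coding RNA Dnm3os. The annotation used gives gene spans only, so exons and introns were not resolved.

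The RefSeq hairpins are shown with the measured arm in capitals, to place each assay on its precursor.
Mir21a: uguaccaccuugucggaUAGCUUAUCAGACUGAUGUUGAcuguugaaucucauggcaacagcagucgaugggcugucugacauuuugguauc
Mir148a: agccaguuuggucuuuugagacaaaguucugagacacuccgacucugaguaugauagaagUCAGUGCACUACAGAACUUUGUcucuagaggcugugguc
Mir214: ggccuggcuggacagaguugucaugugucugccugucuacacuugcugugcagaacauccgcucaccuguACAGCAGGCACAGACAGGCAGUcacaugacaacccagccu
The measured miR-21 occupies bases 18 to 39 of its 92-base hairpin, on the 5′ arm. miR-148a occupies bases 61 to 82 of 99 and miR-214 bases 71 to 92 of 110, both on the 3′ arm. The opposite arms are not among the panel names searched (miR-21*, miR-148a* and miR-214*).

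The raw value is the threshold cycle (Ct), the cycle at which fluorescence crosses a threshold, so an earlier Ct means more template, about 1 doubling for each cycle. Of 384 wells, 123 named miRNAs had a Ct in all 6 samples, and 258 wells had none in any sample. The deposited normalized value is what remains of the raw Ct after the mean of wells P21, P22 and P23 is taken off (the file header speaks of a spike-in control, and the wells carry no other name). The log2 level used here is its negative, so 0 means a Ct equal to the mean of these wells. None of the values of the 3 miRNAs was at Ct 35 or later, where few template molecules remain, and the latest was 32.147. One feature of the samples precedes every result: Vehicle 1 and Vehicle 3 differed by the same number of cycles for all 3 miRNAs, as described further on.

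miR-148a was the most abundant of the 3 by Ct in vehicle samples and had the largest fall. Its raw Ct was 25.377, 21.572 and 24.439 in Vehicle 1, 2 and 3, and 30.281, 30.408 and 29.949 in OCExoInhib 1, 2 and 3. The groups did not overlap, and the nearest samples were 4.57 cycles apart. On the normalized scale its log2 level was 5.62, 8.997 and 6.75 in vehicle samples against 0.07, 0.22 and −0.35 in OCExoInhib samples. Mean levels were 7.12 ± 1.72 and −0.02 ± 0.29 (SD, n = 3 each). The log2 difference, OCExoInhib minus vehicle, was −7.14 (SE 0.89), a 141-fold lower level with a 95% interval from 38.2-fold to 522-fold, and limma's adjusted p over the 115 tested miRNAs was 3.63e-05.

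miR-21 fell as well. Raw Ct values of miR-21 were 27.243, 24.797 and 26.304 in Vehicle 1, 2 and 3, and 30.651, 30.081 and 30.06 in OCExoInhib 1, 2 and 3. All 3 OCExoInhib samples crossed the threshold later than every vehicle sample, by at least 2.82 cycles. Its log2 level was 3.75, 5.77 and 4.89 in vehicle samples and −0.30, 0.55 and −0.46 in OCExoInhib samples, with means of 4.80 ± 1.01 and −0.07 ± 0.54 (SD, n = 3 each). The difference of −4.87 (SE 0.80) is a 29.3-fold lower level, with a 95% interval from 9.04-fold to 95.1-fold and a limma adjusted p of 0.000193.

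miR-214 started lowest and had the smallest fall of the 3. Raw Ct values of miR-214 were 29.62, 26.256 and 28.681 in Vehicle 1, 2 and 3, and 32.147, 29.572 and 30.262 in OCExoInhib 1, 2 and 3. In raw Ct the groups overlapped, since OCExoInhib 2 minus Vehicle 1 was −0.048 cycles. After normalization its log2 level was 1.37, 4.31 and 2.51 in vehicle samples and −1.80, 1.06 and −0.66 in OCExoInhib samples, and the groups were apart by 0.32. The means were 2.73 ± 1.48 and −0.47 ± 1.44 (SD, n = 3 each). The difference of −3.20 (SE 0.94) is a 9.19-fold lower level with a 95% interval from 2.28-fold to 37.0-fold, and limma gave an adjusted p of 0.0174. That call was lost in 9 of 20 settings, with adjusted p values from 0.00156 to 0.465 over all of them. Among these were the settings without Vehicle 2 (log2 difference −2.41, adjusted p 0.102), without OCExoInhib 1 (−2.53, 0.122) and without OCExoInhib 3 (−3.10, 0.0583).

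**Figure D1:**
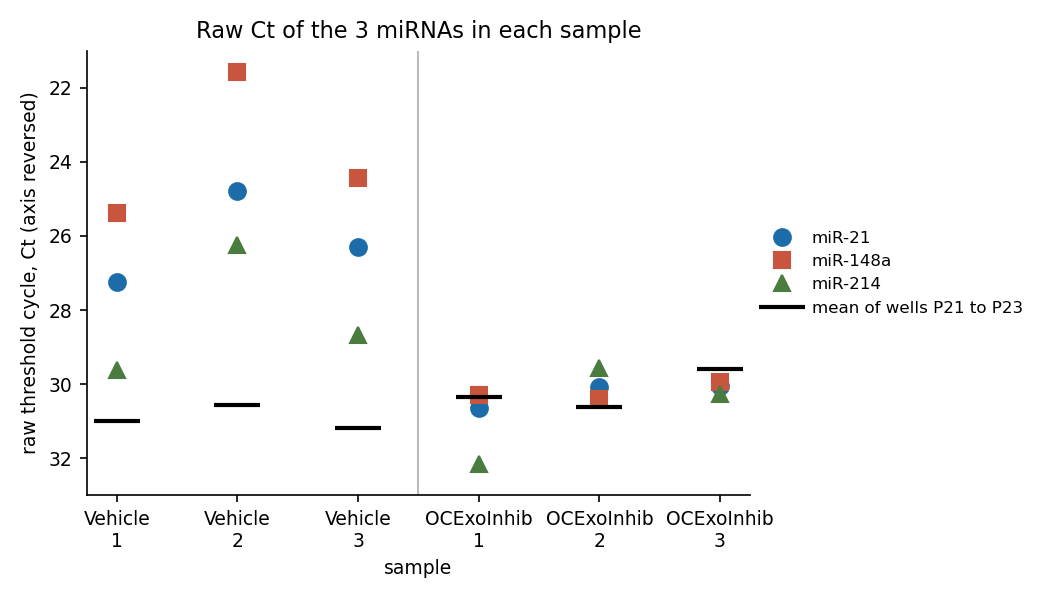
Raw threshold cycles (y axis, cycles, reversed so that higher levels are up) of miR-21, miR-148a and miR-214 in each of the 6 samples (x axis), with a bar for the mean of wells P21 to P23. The 3 miRNAs are 4.24 to 4.68 cycles apart in vehicle samples and 0.313 to 1.87 cycles apart in OCExoInhib samples.

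**Figure D2:**
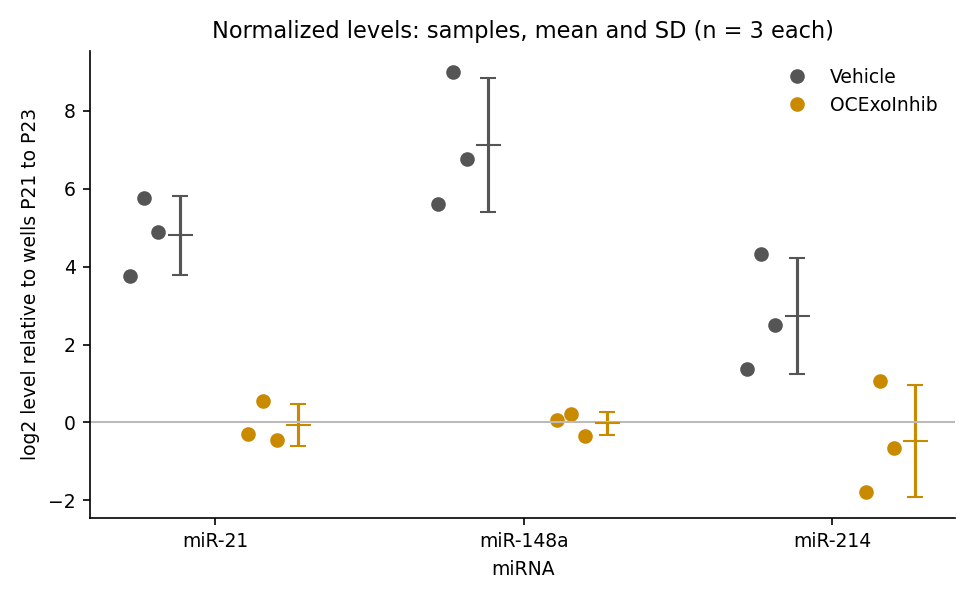
Log2 level relative to wells P21 to P23 (y axis) of the 3 miRNAs (x axis). Points are samples, and the bar beside them is the mean with its SD (n = 3 per group). The points of the groups are separate for all 3, narrowly for miR-214.

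All 3 miRNAs were thus called lower, where 17.4% of the 115 tested miRNAs were called lower and 6.09% higher by the same rule. All 3 also had groups that did not overlap on the normalized scale, as did 20% of tested miRNAs in this direction. They were chosen with earlier results of these data known, so the count says nothing about osteoclast miRNAs as a class. Over all tested miRNAs the median of the log2 differences was −0.54. Relative to that median the differences were −6.60 for miR-148a, −4.33 for miR-21 and −2.66 for miR-214. The authors' deposited table gives folds of vehicle over OCExoInhib of 141.174 for miR-148a, 29.324 for miR-21 and 9.185 for miR-214. Apart from miR-107 (−2.31), every called miRNA, lower or higher, had an OCExoInhib mean log2 level between −0.86 (miR-194) and 0.87 (miR-140). Those not called ran from −4.70 (miR-34b-5p) to 9.83 (miR-489). The 3 miRNAs thus shared an end near the wells' mean with the other called miRNAs. Their OCExoInhib means lay close together (−0.02 for miR-148a, −0.07 for miR-21 and −0.47 for miR-214). The order of their falls therefore follows from that of their vehicle levels, and why they shared this end was not tested. Whether the falls are changes in the serum was not tested, given the repeated Ct differences described further on. If they are, fewer vesicles that carry these miRNAs and fewer copies per vesicle cannot be told apart.

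**Figure D3:**
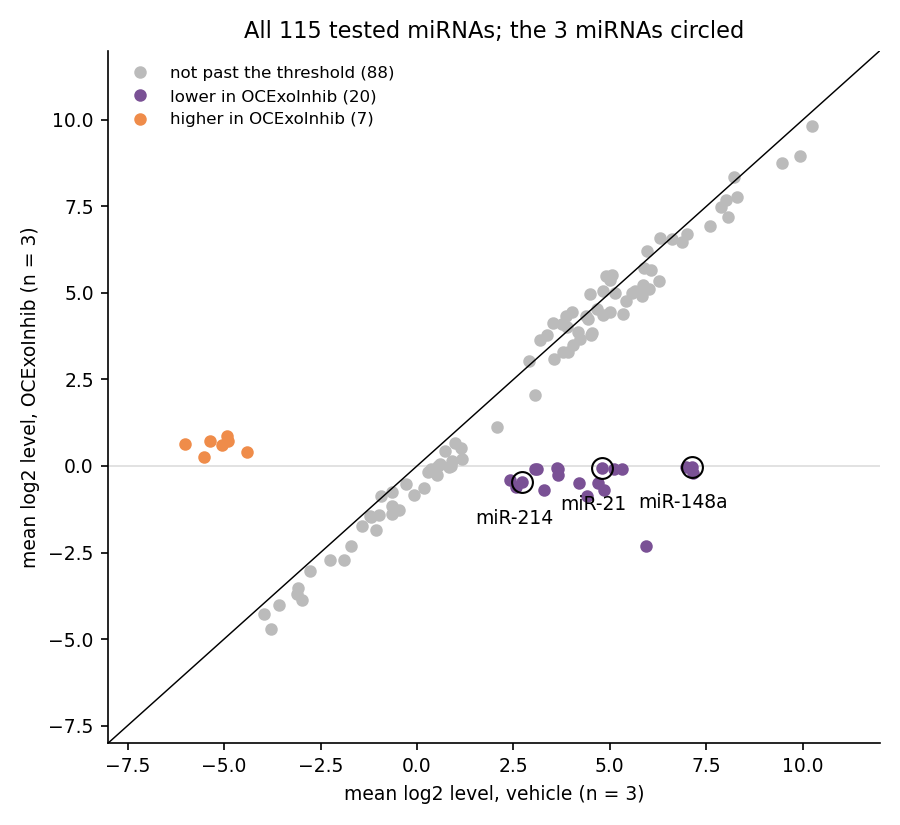
Mean log2 level in OCExoInhib samples (y axis, n = 3) against vehicle samples (x axis, n = 3) for the 115 tested miRNAs, coloured by limma call, with a diagonal of equal levels. The circled miR-214, miR-21 and miR-148a lie at vehicle means of 2.73, 4.80 and 7.12 and at OCExoInhib means of −0.47, −0.07 and −0.02.

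The order of the 3 by Ct was the same in every vehicle sample, with miR-148a earliest and miR-214 latest. Assay efficiencies are not given, so this is an order of cycles and not of copies. The distance from the earliest to the latest was 4.243, 4.684 and 4.242 cycles in Vehicle 1, 2 and 3. In OCExoInhib samples it was 1.866, 0.836 and 0.313 cycles, and in OCExoInhib 2 the order was turned, with miR-214 earliest. Among the 123 miRNAs with a Ct, ranked from the lowest Ct within each sample, miR-148a held places 21, 4 and 15 in vehicle samples and 72, 79 and 79 in OCExoInhib samples. miR-21 moved from places 48, 26 and 44 to 79, 69 and 82. miR-214 held places 77, 55 and 69 in vehicle samples and 98, 63 and 87 in OCExoInhib samples, so its groups overlapped by rank. A rank within a sample does not depend on the wells used for normalization.

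A Ct difference between a pair of miRNAs within a sample does not depend on those wells either, and all 3 pairs were compared. The level of miR-148a relative to miR-214 was 4.39 ± 0.25 on the log2 scale in vehicle samples and 0.45 ± 1.36 with OCExoInhib (SD, n = 3 each). This change of −3.94 (SE 0.80) gave p 0.1 in an exact permutation test (two-sided), which is the smallest that 3 samples against 3 allow, or 0.15 adjusted over the 3 pairs. Relative to miR-21, miR-148a went from 2.32 ± 0.78 to 0.05 ± 0.35, a change of −2.27 (SE 0.50, exact permutation p 0.1, adjusted 0.15). In both pairs the groups did not overlap. Relative to miR-214, miR-21 went from 2.07 ± 0.53 to 0.40 ± 1.02, a change of −1.67 (SE 0.66, exact permutation p 0.2, adjusted 0.2), and these groups overlapped. No pair passed the threshold of 0.05, which this design cannot reach. Vehicle 1 and Vehicle 3 had nearly the same value in each of these 3 pairs and are not shown to be independent, as described further on. The vehicle SDs, SEs and p-values of the pairs count them as separate samples and keep this limit.

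Vehicle 2 had the highest level of each of the 3 miRNAs. It lay above the mean of Vehicle 1 and 3 by 2.81 on the log2 scale for miR-148a, 2.37 for miR-214 and 1.45 for miR-21, while the median of all tested miRNAs was 0.15 above. Of the 115 tested miRNAs, 3 were at least as far above as miR-148a, counting miR-148a itself, 7 as far as miR-214 and 15 as far as miR-21. Without Vehicle 2 the log2 difference was −6.20 for miR-148a and −4.39 for miR-21, and limma's adjusted p was 2.25e-07 and 0.000319. That setting leaves Vehicle 1 and Vehicle 3, which are not shown to be independent because of the repeated differences described next, so these p-values may rest on a single vehicle measurement. Over the 6 settings that each left out a sample, miR-148a ranged from −7.89 to −6.20 and miR-21 from −5.40 to −4.39. Both had an adjusted p under the threshold in each, with this limit on the setting without Vehicle 2. The settings that left out an OCExoInhib sample also count Vehicle 1 and Vehicle 3 as separate samples, so their p-values are limited as well. For miR-21, OCExoInhib 1 and OCExoInhib 2 share a repeated difference too and are counted as separate samples wherever both remain. The fold of miR-148a moved by over 1.5 times without Vehicle 1 (−7.89) and without Vehicle 2. That of miR-214 moved by over 1.5 times without Vehicle 1 (−3.88), Vehicle 2, OCExoInhib 1 and OCExoInhib 2 (−3.96).

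Each of the 3 miRNAs carried Ct differences between samples of a group that were repeated to within 0.0015 cycles in other miRNAs. Vehicle 1 minus Vehicle 3 was 0.939 cycles for miR-21, 0.938 for miR-148a and 0.939 for miR-214. In all, 17 of the 123 miRNAs had this value, and all 17 were called lower in OCExoInhib samples. For the other pairs of vehicle samples, no other miRNA had the difference of any of the 3. OCExoInhib 1 minus OCExoInhib 2 was 0.57 cycles for miR-21 and for 9 others. OCExoInhib 1 minus OCExoInhib 3 was 1.885 cycles for miR-214 and the same within 0.0015 for 9 others. miR-148a shared no difference among its OCExoInhib samples. OCExoInhib 2 minus OCExoInhib 3 was 1.316 cycles, within 0.0015, for 5 miRNAs, none of them among the 3. Over the 4 pairs with a repeat, 1 was carried by 19 of the 20 miRNAs called lower and 3 of the 7 called higher. Of the 88 not called, 1 carried a repeat, miR-465b-5p, and only between OCExoInhib 2 and OCExoInhib 3.

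With these repeats, Vehicle 1 and Vehicle 3 are not shown to be independent measurements of the 3 miRNAs. Their within-sample differences were equal to within 0.001 cycles, at 2.377 and 2.377 for miR-21 relative to miR-214 and 1.866 and 1.865 for miR-148a relative to miR-21. For miR-148a relative to miR-214 they were 4.243 and 4.242. With Vehicle 1 and Vehicle 3 averaged into a single sample, the log2 difference was −7.61 for miR-148a (limma adjusted p 0.000579), −5.12 for miR-21 (0.00118) and −3.59 for miR-214 (0.0333). OCExoInhib 1 and OCExoInhib 2 are likewise not shown to be independent for miR-21, nor OCExoInhib 1 and OCExoInhib 3 for miR-214. The averaged setting still counts them as separate samples, so its p-values for miR-21 and miR-214 keep this limit. Leaving out the miRNAs with a repeat removed all 3 and left 5 called miRNAs of 92. The source of the repeats was not tested.

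**Figure D4:**
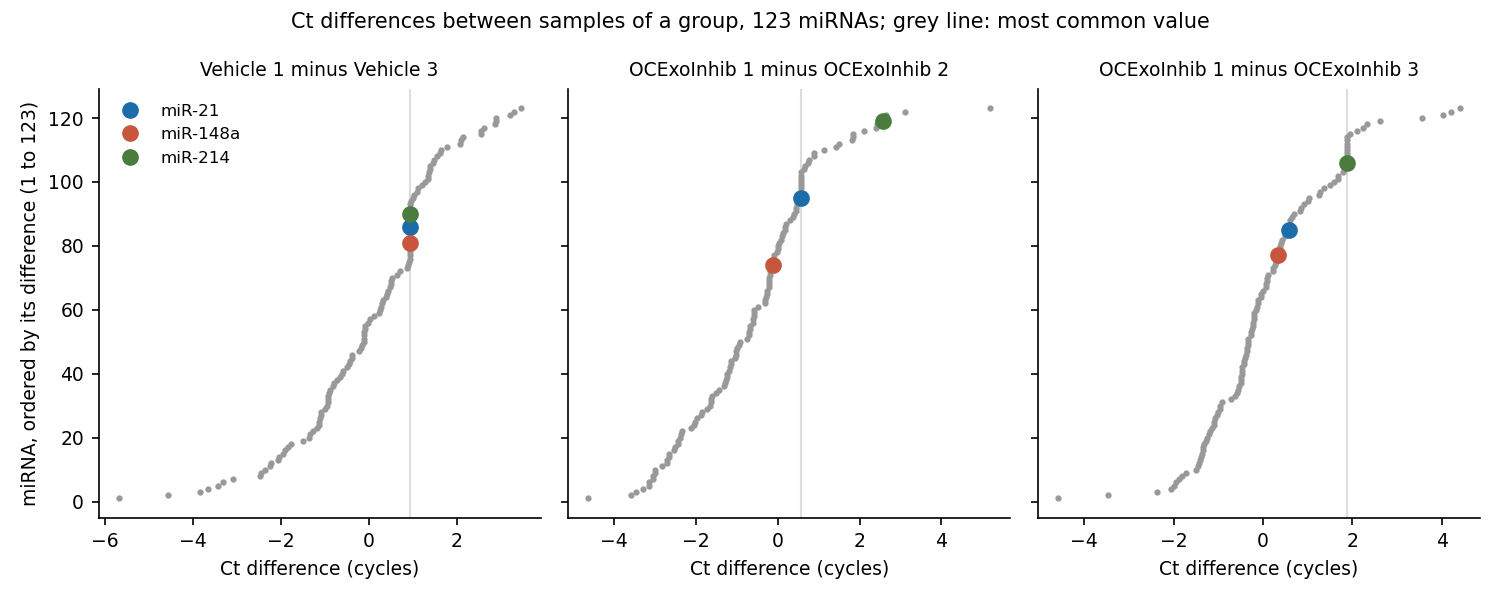
Ct difference in cycles (x axis) between samples of a group for the 123 miRNAs with a Ct, ordered by the difference (y axis), with the 3 miRNAs coloured and a grey line at the most common value. The vertical runs of points are repeated values: 17 miRNAs at 0.939 for Vehicle 1 minus Vehicle 3, 10 at 0.57 for OCExoInhib 1 minus OCExoInhib 2 and 10 at 1.886 for OCExoInhib 1 minus OCExoInhib 3.

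The wells behind the normalization averaged 30.9 ± 0.318 cycles in the vehicle group and 30.2 ± 0.531 with OCExoInhib (SD, n = 3 each), which differ by −0.725 cycles (exact permutation p 0.2, two-sided). Normalized to single wells, miR-148a differed by −7.42 with P21, −7.62 with P22 and −6.38 with P23 on the log2 scale. For miR-21 these values were −5.15, −5.35 and −4.11. For miR-214 they were −3.48, −3.68 and −2.44, and with P23 alone the call of miR-214 was lost (limma adjusted p 0.119). Without normalization the log2 differences were −6.42 for miR-148a (adjusted p 0.00224), −4.15 for miR-21 (0.00468) and −2.47 for miR-214 (0.178). Over all 20 settings the highest adjusted p was 0.0344 for both miR-148a and miR-21, by the unmoderated equal-variance test.

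**Figure D5:**
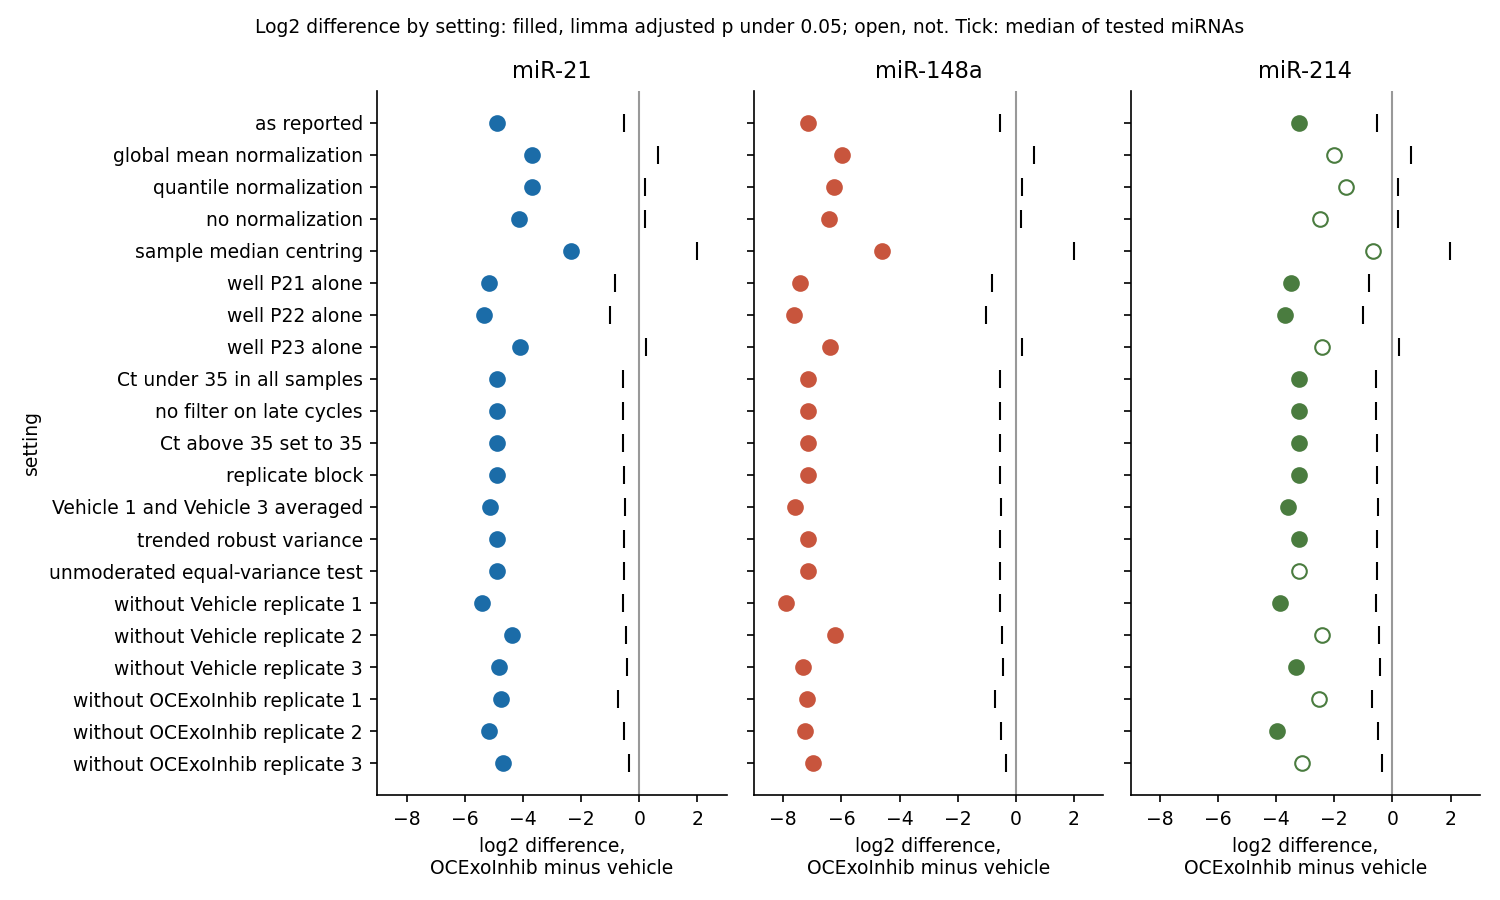
Log2 difference, OCExoInhib minus vehicle (x axis), of each miRNA under the reported setting and 20 others (y axis). Filled points have a limma adjusted p under 0.05 (by the unmoderated test in its row), open points do not, and the tick is the median of the tested miRNAs. miR-21 and miR-148a are filled throughout, and miR-214 is open in 9 settings.

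Relatives by seed were on the panel for 2 of the 3 miRNAs, and none of them had a Ct in any of the 6 samples. They are shown, with the seed in capitals, because they share a seed with a measured miRNA.
miR-148b: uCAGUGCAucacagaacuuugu
miR-152: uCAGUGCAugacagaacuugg
miR-590-5p: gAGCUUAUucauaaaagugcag
Counting positions from 1 at the 5′ end, with the base of miR-148a first, miR-148b differs from miR-148a at C9U and U10C, and the other 20 of its 22 bases are identical. miR-152 differs at C9U, U10G and U20G over the 21 bases compared. miR-590-5p has the seed of miR-21 and 8 identical bases of 22. No other panel entry had the seed of miR-214. The specificity of the assays among these sequences was not tested.

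miR-214 is made with miR-199a from the Dnm3os transcript, and miR-199a is known from fibroblasts and other mesenchymal cells. On chromosome 1 the sequence of miR-199a-5p ends 5571 bases before that of miR-214, and that of miR-199a-3p 5533 bases before. Both arms of miR-199a also have identical copies at other loci, so their levels do not come from this locus alone.
miR-199a-5p: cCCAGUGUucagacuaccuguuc
miR-199a-3p: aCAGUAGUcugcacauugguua
miR-199a-5p had mean log2 levels of −0.07 ± 0.41 in vehicle samples and −0.85 ± 0.60 with OCExoInhib (SD, n = 3 each), a difference of −0.78 (SE 0.75, limma adjusted p 0.866). miR-199a-3p had −0.47 ± 0.72 and −1.28 ± 0.59, a difference of −0.81 (SE 0.77, adjusted p 0.866). Neither passed the threshold. The level of miR-214 relative to miR-199a-5p went from 2.80 ± 1.64 to 0.38 ± 1.64 on the log2 scale, a change of −2.42 (SE 1.34, exact permutation p 0.2). Relative to miR-199a-3p it changed by −2.39 (SE 1.49, exact permutation p 0.3), and in both cases the groups overlapped. These pairs were chosen after their values were seen, and adjusted over both, the p was 0.3 for each. The smallest p that 3 samples against 3 allow is 0.1, so these tests could not reach the threshold. They cannot decide whether miR-214 and its cluster partners responded differently. The entry miR-199b has the same 22 bases as miR-199a-3p on the panel, yet it had no Ct in any sample while miR-199a-3p had one in all 6.

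For each of the 3, the miRNAs with the most similar pattern were those with the smallest root mean square difference of log2 levels over the 6 samples, each miRNA centred on its own mean. For miR-21 these were miR-16 at 0.588, miR-15a at 0.695 and let-7e at 0.697, where the median over 122 other miRNAs was 2.42. For miR-148a they were miR-542-3p at 0.786, miR-16 at 0.985 and miR-21 at 1.24, with a median of 3.55. For miR-214 they were miR-133a at 0.713, miR-15a at 0.751 and miR-151-3p at 0.767, with a median of 2.01. Apart from miR-542-3p, all of these carried a repeated Ct difference. In OCExoInhib samples let-7e and miR-151-3p had the same mean Ct of 30.2683, as did miR-145. Their Ct differences between these samples were also the same (0.57, 1.886 and 1.316 cycles), so their Ct values were equal in each sample. miR-148a and miR-214 were 2.13 apart, beyond the median for miR-214 and below that for miR-148a, where miR-214 was in place 12 of 122.

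Other miRNAs with a reported role in osteoclasts did not all move the same way. Of 11 listed miRNAs that promote osteoclasts, including the 3, all were on the panel and 8 had a Ct and were tested. Outside the 3, miR-133a, best known from muscle, fell (log2 difference −2.82, SE 0.84, limma adjusted p 0.0184), and miR-29c, which represses collagen messages, rose (5.68, SE 0.75, adjusted p 3.63e-05). In raw cycles miR-29c went from a mean vehicle Ct of 36.0, past the limit of 35, to 29.6. miR-29a, miR-29b and miR-199a-5p did not pass, with differences from −0.97 to −0.63, and miR-31, miR-183 and miR-9 had no Ct. The list's median was −1.90 against −0.54 for all tested miRNAs, and the median of the 5 tested members other than the 3 was −0.78. Of 13 listed miRNAs that restrain osteoclasts, 8 had a Ct and 6 were tested. miR-145 fell (−3.20, SE 0.76, adjusted p 0.00379), miR-34a rose from a late mean vehicle Ct of 36.3 (6.07, SE 1.01, adjusted p 0.000193) and 4 did not pass, with differences from −0.998 to −0.10. Their median was −0.52. By the same rule 17.4% of all tested miRNAs were called lower and 6.09% higher. Counts over so few miRNAs do not set either list apart from that background. miR-133a, miR-29c, miR-145 and miR-34a all carried a repeated Ct difference.

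Serum RNA also comes from blood cells, liver and muscle, and 12 of 23 listed miRNAs of such sources had a Ct. No sample gave a Ct for the liver miRNA miR-122, the endothelial miR-126-3p, the red-cell miR-486 and miR-451, the leukocyte miR-142-3p or the muscle miR-1. The summed level of the measured red-cell miRNAs, with the mean of wells P21 to P23 set to 1, was 44.0 to 262 in vehicle and 42.0 to 89.3 in OCExoInhib samples, and miR-16 fell among 3 tested, where 17.4% of all tested miRNAs were called lower. The liver sum ran from 46.3 to 177 and from 24.4 to 84.2, and miR-194 fell among 2 tested, against the same 17.4%. The muscle sum did not overlap, at 7.73 to 9.20 in vehicle and 1.92 to 3.36 in OCExoInhib samples, and miR-133a fell among 3 tested, again against 17.4%. Mean log2 levels in vehicle samples were 2.41 for miR-133a, 1.15 for miR-499 and −2.77 for miR-206. The sum thus rested most on miR-133a, which carried a repeated Ct difference. Singly, miR-499 and miR-206 had groups that overlapped, and 20% of all tested miRNAs did not overlap in this direction. The platelet sum ran from 24.4 to 57.8 and from 13.1 to 36.6, and the leukocyte sum from 12.3 to 47.9 and from 12.7 to 35.4, with 0 of 1 and 0 of 2 tested past limma's threshold, where 23.5% of all tested miRNAs passed it in either direction. Counts over so few miRNAs do not set these sources apart from that background. The part of these sources in the falls of miR-21, miR-148a and miR-214 was not tested.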

How the data were processed

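Per the labels' protocols, exosomal RNA was purified with a column kit, reverse transcribed and amplified over 40 cycles (ViiA7). Per the file headers, the authors' raw values are Ct, a log2 scale in cycles, and the deposited normalized log2 values are differences of Ct. They equalled the raw Ct minus the mean of wells P21, P22 and P23 in all samples. The authors' deposited ratio (fold of vehicle over OCExoInhib) was copied for comparison. How the threshold was set and wells without a Ct were handled is not stated in the sources used here. The tables held 0 columns of other samples.

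Levels were fitted with limma 3.58.1 in R 4.3.3 (lmFit, eBayes, two-sided) over 115 miRNAs (those whose Ct was below 35 in 3 or more of 6 samples), with Benjamini-Hochberg adjustment and a threshold of 0.05. The fit was tested on simulated data. Exact permutation tests used scipy 1.17.1 in Python 3.11.15. Sequences are those of the panel and of RefSeq (GRCm38.p6). The miRNAs, lists and settings were chosen with earlier results of these data known. Named besides the 3 miRNAs are their arm, seed and cluster relatives, list members past the threshold and the 3 nearest patterns of each. List members that did not pass, and marker miRNAs without a Ct, were named after their values were seen. Deviations from the group means correlated by 0.0587, 0.0177 and 0.117 between samples of the same number, which were therefore not treated as pairs.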

Additional observations from a re-analysis of the deposited data

How the results depend on the processing

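miR-21 and miR-148a stayed lower and past the threshold in all 20 settings tried for each, with log2 differences from −5.40 to −2.35 and from −7.89 to −4.62. miR-214 stayed below 0 and missed the threshold with global mean (−2.02), quantile (−1.59) and no normalization (−2.47), sample median centring (−0.67), well P23 alone (−2.44) and the unmoderated test (−3.20, adjusted p 0.234), and with single samples left out it ranged from −3.96 to −2.41. Sample median centring moved the median of all tested miRNAs from −0.54 to 1.98, so a difference of −0.67 is still −2.66 against that median, as in every other shift common to a sample. The count of called miRNAs was 27 (20 lower, 7 higher), 24 to 27 with single samples left out, 16 with quantile normalization, 68 with sample median centring (11 lower, 57 higher), 15 by the unmoderated test, and 5 without miRNAs that carry a repeated difference, since 22 of the 27 were left out. Global mean normalization gave 14 lower and 7 higher, and a Ct under 35 in all samples 19 lower and 0 higher, where late vehicle values removed those that rose. With the sample number as a replicate block there were 25, and the log2 differences of miR-21, miR-148a and miR-214 remained −4.87, −7.14 and −3.20 with an adjusted p of 0.0128, 0.0142 and 0.0142. The wells' difference of −0.725 cycles was 0.035 for P23 alone. Apart from the exclusions, the cause was not tested. With 3 samples a group, a pair of miRNAs could not reach p 0.05.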
